A study of Homo sapiens with 40 samples.

Results

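U2OS cells in which MYC had been switched on were compared with the same cells left uninduced, in both cases while hairpin 5 kept CTR9 low. The comparison rests on 8 of the 40 RNA-seq libraries of the series. It sets 4 libraries of cells with shCTR9#5 given doxycycline (Dox, 1 µg/ml, 24 h) against 4 libraries of cells with shCTR9#5 given ethanol (EtOH, 24 h). Members were taken by hairpin and treatment from the sample titles, and no measured value entered the choice. U2OS is a human osteosarcoma line. All cells carry a stable TetOn construct, in which Dox turns on a MYC transgene, and a hairpin in the pGIPZ vector, under puromycin at 0.2 µg/ml. Dox and EtOH pairs with the other CTR9 hairpin (shCTR9#3) and with the control hairpin shNTC, 4 libraries in each group, are used only to show where hairpin 5 differs. Whether the cells are pools or clones is not given in the sources used here.

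MYC is a transcription factor that pairs with MAX and binds E-box DNA, of which CACGTG is the best known form. It is known for raising genes of ribosome production, nucleotide synthesis, amino acid uptake and glucose use, and for lowering cell cycle inhibitors and genes of adhesion and matrix. CTR9 is the scaffold subunit of the PAF1 complex, which binds MYC and travels with elongating RNA polymerase II. No cell line without inducible MYC was analysed here, so effects of Dox itself and of MYC cannot be told apart. Reads per gene do not separate the transgene from the cells' own MYC gene.

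Levels are given in CPM, a gene's reads scaled to the effective total of the library. The 40 libraries held 877323 to 1532617 counts and the 8 libraries with shCTR9#5 held 901036 to 1321226. At this depth 3 reads correspond to 2.27 to 3.33 CPM in the shCTR9#5 libraries, so genes of a few CPM rest on few reads, and the intervals given for ratios of reads cover counting error only. Changes are log2 fold changes of Dox over EtOH ± standard error from edgeR's quasi-likelihood test, and p-values carry the Benjamini-Hochberg adjustment across all 12557 tested genes. The words rose and fell are used for an adjusted p below 0.05. The p-values reflect how far libraries of a group lie apart, and because the labels number the replicates without saying whether they are separate cultures, that spread may be technical. Of 12 markers of bone and mesenchymal cells, 3 had 0 reads in the shCTR9#5 libraries of either treatment (SP7, COL1A2 and BGLAP, the gene of osteocalcin), and 6 were tested, among them RUNX2, SPARC and COL1A1. The summed level of these 12 genes was 1025 to 1157 CPM in Dox libraries and 1437 to 1602 CPM in EtOH libraries, and SPARC, VIM and COL1A1 fell. The 7 blood and 4 endothelial markers never summed to more than 5.58 CPM and none was tested. Of 8 epithelial and 5 neural markers, 4 and 2 were tested and none passed the test for a change with Dox. They were not absent. The epithelial markers summed to 256 to 295 CPM in Dox libraries and 285 to 322 CPM in EtOH libraries. The neural markers summed to 39.1 to 57.6 CPM in Dox libraries and 40.6 to 54.2 CPM in EtOH libraries. The RNA is from bulk cultures, so fewer cells of a kind and less RNA per cell cannot be told apart.

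The hairpin and the induction were both visible in the libraries. CTR9 had 17.2, 24.0, 21.2 and 20.3 CPM in Dox libraries with shCTR9#5, against 21.9, 20.7, 20.4 and 17.4 CPM in EtOH libraries. The treatments overlapped and the change was 0.04 ± 0.17 (adjusted p = 0.957). Against shNTC, where CTR9 had 73.2 to 98.0 CPM in Dox and 67.5 to 78.9 CPM in EtOH, it was lower with shCTR9#5 by a log2 difference of -2.08 ± 0.13 in Dox (adjusted p = 9.33e-18) and -1.87 ± 0.13 in EtOH (adjusted p = 1.1e-15), contrasts in which 31.0% and 34.9% of all genes passed the test. MYC had 8818, 9565, 9493 and 9647 CPM in Dox libraries, against 522, 570, 523 and 581 CPM in EtOH libraries. The groups were far apart, and the rise of 4.09 ± 0.08 had an adjusted p of 4.76e-39. None of the 8 listed subunits of the PAF1 complex and of the SKI complex, an RNA decay factor that shares the subunit WDR61 with it, passed the test, and the median change of these 8 was -0.02.

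**Figure D1:**
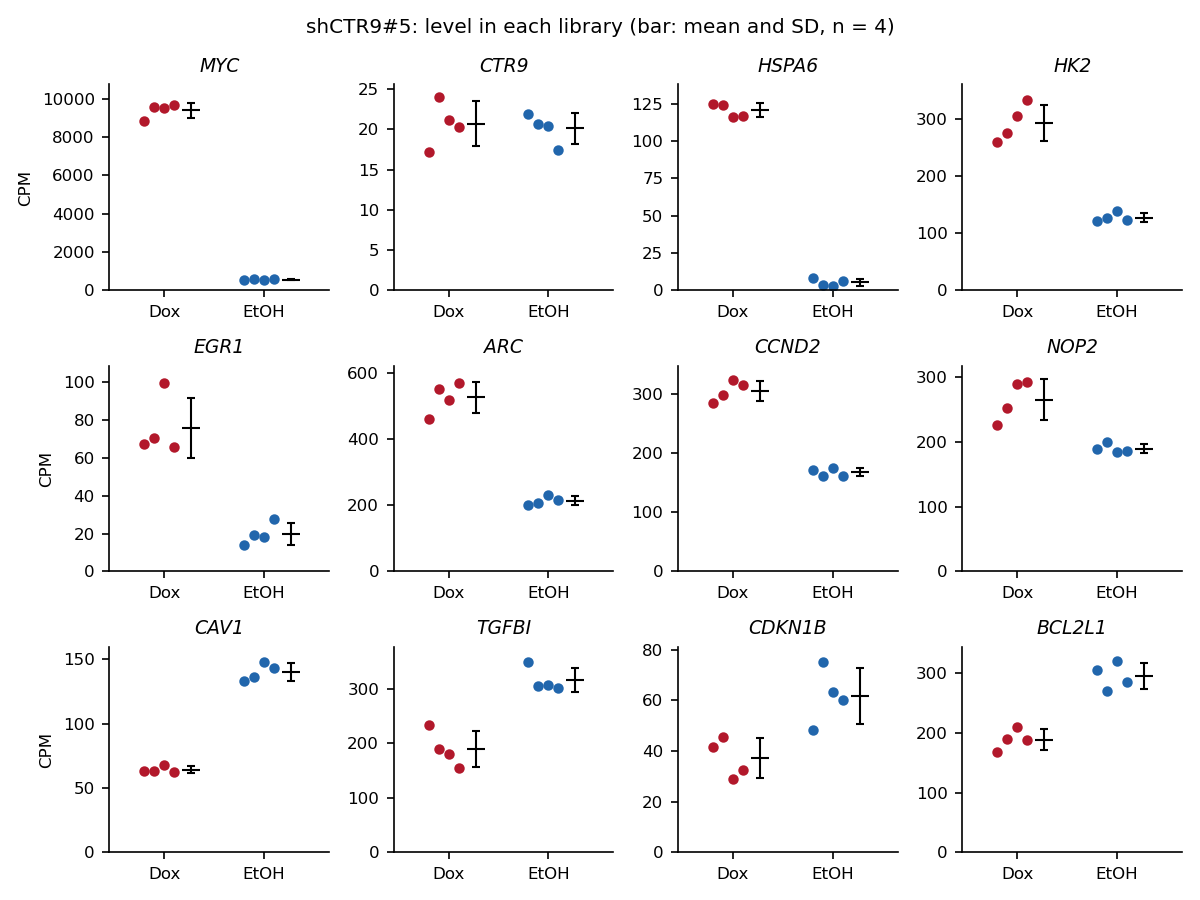
Level in CPM (linear axes from 0) of 12 genes in each of the 4 Dox and 4 EtOH libraries with shCTR9#5, with mean and SD beside the points. MYC stood at 8818 to 9647 CPM in Dox and 522 to 581 CPM in EtOH, CTR9 overlapped between treatments, and the other 10 genes separated all Dox libraries from all EtOH libraries.

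Dox with shCTR9#5 changed 860 of the 12557 genes, which is 6.85%. Of these, 483 rose (3.85%) and 377 fell (3.0%). Counts of list members that rose or fell, given further on, are to be read beside these shares. Changes of at least 1.5-fold were seen for 280 genes that rose and 212 that fell, and changes of at least 2-fold for 139 that rose and 43 that fell. Across all genes the median change was -0.01. All Dox libraries lay above all EtOH libraries for 926 genes (7.37%) and below them for 837 (6.67%), whether or not these passed the test. The large changes upward were mostly in genes nearly silent without Dox, such as the collagenase gene MMP13 and the stress-inducible chaperone gene HSPA6. With the genes in 5 equal bins by EtOH level, 115 rose and 11 fell in the lowest bin (up to 11.8 CPM), while 113 rose and 137 fell in the highest (above 104 CPM). The EtOH level used for the bins is also part of the change, so this split is partly built in. A gene of the lowest bin could also pass the filter through a group where it is high, and it has little room to fall. The bins are therefore not read further. By gene class, 4.14% of the 10608 protein-coding genes rose and 3.3% fell, against 1.81% and 0.632% of 1108 pseudogenes. The classes were not matched for level, so these shares are not read further either.

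**Figure D2:**
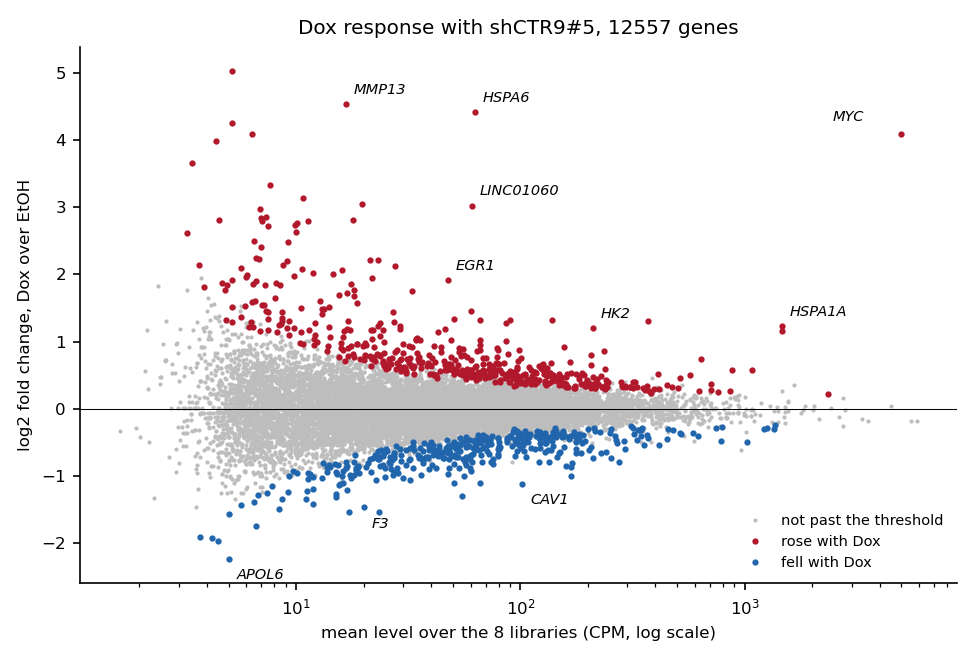
Log2 fold change of Dox over EtOH with shCTR9#5 against mean level over the 8 libraries (CPM, log axis) for the 12557 genes tested, with genes that rose or fell in colour. MYC lies apart at the upper right with a change of 4.09, and the other changes above 3 belong to genes of far lower level.

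The 15 largest changes each way were taken only among called genes without overlap of libraries. For these genes, here and further on, the lack of overlap follows from that rule. MMP13, which encodes a collagenase, had 27.9, 41.9, 33.5 and 25.1 CPM in Dox libraries, against 0.0, 0.766, 2.04 and 2.61 CPM in EtOH libraries. All Dox libraries lay above all EtOH libraries. The gene rose by 4.55 ± 0.45 (adjusted p = 1.84e-10), on 151 reads in Dox and 6 in EtOH, a ratio of 25.3 with an exact 95% counting interval of 11.4 to 70.2. HSPA6, the chaperone gene that is switched on almost only under heat or protein stress, had 125, 124, 116 and 117 CPM in Dox libraries, against 8.59, 3.83, 3.07 and 6.08 CPM in EtOH libraries. Its rise was 4.43 ± 0.21 (adjusted p = 3.71e-22). The noncoding LINC01060 reached 102, 136, 102 and 96.5 CPM in Dox libraries, against 9.37, 19.2, 11.2 and 13.0 CPM in EtOH libraries. No library of either gene crossed into the other group, and LINC01060 rose by 3.03 ± 0.19 (adjusted p = 6.4e-17). ALPG, a placental-type alkaline phosphatase gene with near-identical paralogs among which reads could be split, had 59 reads in Dox and 3 in EtOH, a ratio of 19.8 (exact interval 6.45 to 98.8). VIPR2, a receptor for vasoactive intestinal peptide, had 14.8, 18.0, 24.6 and 22.7 CPM in Dox libraries, against 2.34, 5.36, 0.0 and 2.61 CPM in EtOH libraries, and rose by 2.80 ± 0.37 (adjusted p = 4.08e-07). FRG2, a gene of a multicopy family, rose by 2.86 ± 0.42 on 61 reads in Dox and 8 in EtOH. The other 8 of the 15 largest changes upward, apart from MYC, are genes of early embryos or their close copies and are described further on.

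The largest changes downward were smaller. C9orf84, a gene with a role in meiosis, had 31.2, 30.7, 32.4 and 32.4 CPM in Dox libraries, against 83.5, 75.1, 72.6 and 81.7 CPM in EtOH libraries. It fell by 1.31 on the log2 scale with no overlap of the groups (standard error 0.17, adjusted p = 2.84e-07). MISP, which ties the mitotic spindle to the cell cortex, had 13.1, 12.7, 7.82 and 13.8 CPM in Dox libraries, against 37.5, 43.7, 27.6 and 31.3 CPM in EtOH libraries, a change of -1.54 ± 0.22 (adjusted p = 1.3e-06). TMEM173, the gene of the innate immune adaptor STING, had 7.38, 6.74, 7.82 and 13.0 CPM in Dox libraries, against 26.5, 26.0, 27.6 and 22.6 CPM in EtOH libraries, a change of -1.54 ± 0.25 (adjusted p = 2.23e-05). Both genes were lower in every Dox library than in any EtOH library. APOL6 had the largest change by size, -2.24 ± 0.54 (adjusted p = 0.00467), with 0.82, 0.0, 0.0 and 5.68 CPM in Dox libraries against 6.24 to 11.5 CPM in EtOH libraries. Without Dox replicate 4 its change was -4.45 (adjusted p = 6.18e-05), and without replicate 2 or replicate 3 of all groups it missed the threshold, at -1.58 (adjusted p = 0.162) and -1.97 (adjusted p = 0.0591). CPA5, TCIM and PGPEP1 fell by 1.31, 1.28 and 1.21 on the log2 scale. LINC02257 fell by 1.42, and its groups did not overlap (3.24 to 10.5 CPM in Dox and 14.0 to 20.7 CPM in EtOH). A further 6 of the 15 (RPS15AP5, SEMA3B, FMNL1, ABCC3, NTM and RGS17) fell by 1.23 to 1.44 on the log2 scale but missed the threshold when some single library was left out. These were FMNL1 without Dox 3 or EtOH 2, RGS17 without Dox 4, ABCC3 without Dox 4, EtOH 1 or EtOH 2, NTM without Dox 2 or 3 or EtOH 1 or 2, SEMA3B without Dox 2 or 4 or EtOH 1 or 3, and RPS15AP5 without any of Dox 2, 3 and 4 and EtOH 1, 2 and 3. RPS15AP5 is a processed pseudogene, and its reads cannot be told apart from those of its parent gene.

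Part of the genes of ribosome production rose, by modest amounts. Of 61 tested members of the list, 15 rose and none fell, the changes ran from 0.00 to 0.52, and their median was 0.23 beside -0.01 for all genes. NOLC1, a nucleolar chaperone of small nucleolar RNPs, had 362, 359, 376 and 372 CPM in Dox libraries, against 297, 265, 290 and 264 CPM in EtOH libraries. It rose by 0.40 ± 0.08 (adjusted p = 0.000408). NOP2, the methyltransferase that modifies the large ribosomal RNA, had 226, 253, 290 and 293 CPM in Dox libraries, against 189, 200, 185 and 186 CPM in EtOH libraries, a rise of 0.48 ± 0.10 (adjusted p = 0.000535). Neither gene overlapped between treatments. DDX56, an RNA helicase of the large subunit pathway, had 153 to 184 CPM in Dox libraries and 113 to 137 CPM in EtOH libraries and rose by 0.43 ± 0.09 (adjusted p = 0.00143). IMP4, a part of the small subunit processome, had 219 to 238 CPM in Dox libraries and 155 to 192 CPM in EtOH libraries and rose by 0.42 ± 0.09 (adjusted p = 0.00219). Without replicate 2 of the EtOH libraries 8 members rose in place of 15. Over all fits with a replicate number or a single library left out, 6 to 13 rose. The protein components of the ribosome gave no calls. None of the 54 cytoplasmic ribosomal protein genes tested passed the test (median -0.03, range -0.20 to 0.18), and neither did any of 42 mitochondrial ribosomal protein genes (median 0.05), 20 aminoacyl-tRNA synthetases (median 0.04) or 8 subunits of the CCT chaperonin (median 0.05).

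The promoters of 3 ribosome production genes that rose are printed because they show where the E-box CACGTG stands near the start. They run 5′ to 3′ on the strand of the gene, from RefSeq on GRCh38.p14, with 250 bases before the start and 50 from it on, and the E-box in capitals. NOP2 lies at chr12:6568242-6568541 on the minus strand, IMP4 at chr2:130342647-130342946 on the plus strand and RRP9 at chr3:51941855-51942154 on the minus strand. RRP9, which encodes a U3 snoRNP protein and rose by 0.52 ± 0.15, was chosen after its value was seen.
NOP2: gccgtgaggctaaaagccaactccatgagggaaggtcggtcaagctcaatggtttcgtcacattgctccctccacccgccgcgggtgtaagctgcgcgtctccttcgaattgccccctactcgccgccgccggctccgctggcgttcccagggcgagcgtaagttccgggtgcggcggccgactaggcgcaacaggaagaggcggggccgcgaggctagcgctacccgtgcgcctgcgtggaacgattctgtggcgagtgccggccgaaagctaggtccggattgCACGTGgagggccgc
IMP4: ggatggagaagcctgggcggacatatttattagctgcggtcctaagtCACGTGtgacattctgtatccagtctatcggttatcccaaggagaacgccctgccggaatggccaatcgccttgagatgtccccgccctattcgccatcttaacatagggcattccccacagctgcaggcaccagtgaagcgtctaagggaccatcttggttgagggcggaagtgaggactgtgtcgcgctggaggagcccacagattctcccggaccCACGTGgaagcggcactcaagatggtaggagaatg
RRP9: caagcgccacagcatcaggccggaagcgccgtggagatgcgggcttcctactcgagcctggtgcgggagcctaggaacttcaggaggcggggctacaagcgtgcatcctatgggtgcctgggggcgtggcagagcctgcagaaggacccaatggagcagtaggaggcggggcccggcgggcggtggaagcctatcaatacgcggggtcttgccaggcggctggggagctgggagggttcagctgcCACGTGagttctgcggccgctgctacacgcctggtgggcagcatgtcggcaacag
The E-box begins at base 286 of the NOP2 window, at bases 48 and 266 of the IMP4 window and at base 246 of the RRP9 window. The motif searched was CACGTG, which reads the same on both strands. It was found in 6 of the 11 promoters available for ribosome production genes that rose (54.5%) and in 20 of the 52 available for all tested members of the list (38.5%). Of promoters for all genes that rose with Dox, 61 of 356 held it (17.1%), against 15 of 290 for genes that fell (5.17%), 928 of 8950 for all genes tested (10.4%) and 2548 of the 35116 promoters in the table (7.26%). The share was 14.6% among genes that rose at least 1.5-fold and 20.4% among those that rose less. A match is a description of the letters, not a sign of binding, and promoters were found by symbol for 8950 of the 12557 genes only.

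Chaperone genes of the heat shock response rose beside HSPA6. Of 21 tested, 8 rose and none fell, with a median of 0.18, beside 3.85% and 3.0% of all genes. Among those that did not pass the test were HSP90AA1 (0.09), HSPH1 (0.20), DNAJA1 (0.01) and HSPB1 (-0.17). The 8 include both HSPA1A and HSPA1B. HSPA1A and HSPA1B, the main inducible HSP70 genes, are near-identical copies, so how their reads were shared between them is uncertain. HSPA1A had 2045, 1869, 2294 and 2040 CPM in Dox libraries, against 801, 774, 933 and 1018 CPM in EtOH libraries. It rose by 1.23 ± 0.12 (adjusted p = 1.92e-10) and HSPA1B by 1.16 ± 0.12 (adjusted p = 1.21e-09), each without overlap. BAG3, a co-chaperone that links HSP70 to autophagy, had 190 to 247 CPM in Dox libraries and 149 to 158 CPM in EtOH libraries and rose by 0.44 ± 0.10 (adjusted p = 0.00397). The count was 5 in place of 8 without any of Dox replicate 3, Dox replicate 4, EtOH replicate 1 and EtOH replicate 2. None of the 24 genes of the unfolded protein response, which serves the endoplasmic reticulum, passed the test (median 0.01).

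Genes of nutrient uptake moved in both directions. Of 19 amino acid transporters tested, 6 rose and 1 fell (median 0.22), beside 3.85% and 3.0% of all genes. SLC7A5, the large neutral amino acid transporter, had 1147, 1280, 1373 and 1355 CPM in Dox libraries, against 778, 826, 956 and 888 CPM in EtOH libraries. It rose by 0.58 ± 0.11 (adjusted p = 0.000166), and its partner chain SLC3A2 rose by 0.51 ± 0.12 (adjusted p = 0.00555). SLC7A2, a carrier of cationic amino acids, rose by 0.64 ± 0.13, and SLC6A15, a carrier of neutral amino acids, rose by 0.56 ± 0.12. SLC38A2, the glutamine carrier SNAT2, had 436 to 484 CPM in Dox libraries and 541 to 615 CPM in EtOH libraries and fell by 0.39 on the log2 scale (standard error 0.08, adjusted p = 0.00118). Of 30 regulators and targets of ATF4, the transcription factor of the amino acid response, 4 rose and 1 fell. The gene that fell was GDF15, a secreted stress cytokine, with 20.2 to 23.0 CPM in Dox libraries and 35.1 to 37.8 CPM in EtOH libraries.

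In glucose use, 4 of 25 genes rose and 2 fell, with a median of -0.09. HK2, the hexokinase that traps glucose in the cell, had 260, 276, 305 and 333 CPM in Dox libraries, against 122, 127, 139 and 123 CPM in EtOH libraries. It rose by 1.20 ± 0.12 (adjusted p = 7.23e-11) with the groups well apart. SLC16A1, the lactate carrier MCT1, had 1029 to 1093 CPM in Dox libraries and 676 to 740 CPM in EtOH libraries and rose by 0.58 ± 0.07 (adjusted p = 3.76e-08). PFKFB3, which makes the activator of phosphofructokinase, had 147 to 156 CPM in Dox libraries and 81.2 to 115 CPM in EtOH libraries and rose by 0.65 ± 0.10 (adjusted p = 1.24e-05). SLC2A3, the glucose carrier GLUT3, had 49.2 to 77.1 CPM in Dox libraries and 92.7 to 97.1 CPM in EtOH libraries and fell by 0.56 on the log2 scale (standard error 0.13, adjusted p = 0.00456). Of 37 common MYC target genes tested, 6 rose and none fell, with a median of 0.14. HK2, SLC16A1 and NOLC1 are among those 6, and 3 rose without replicate 2 of the EtOH libraries. In nucleotide synthesis PPAT, the first enzyme of the purine pathway, rose by 0.33 ± 0.08 (adjusted p = 0.00473), and 2 of the 25 genes tested rose and none fell (median 0.01). Of 17 genes of serine and one-carbon metabolism 2 rose and 1 fell (median 0.0). SLC25A32, the mitochondrial folate carrier, rose by 0.52 ± 0.11 (adjusted p = 0.000938), and MAT2A, which makes S-adenosylmethionine, rose by 0.27 (adjusted p = 0.0388), a call lost when any single library other than EtOH replicate 1 was left out. SHMT1, the cytosolic serine hydroxymethyltransferase, had 13.4 to 21.1 CPM in Dox libraries and 26.6 to 28.9 CPM in EtOH libraries, a change of -0.69 ± 0.19 (adjusted p = 0.0175) that missed the threshold without Dox replicate 2 or 3. Of 9 genes of polyamine synthesis 1 rose, AMD1, by 0.35 ± 0.09 (adjusted p = 0.00789).

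**Figure D3:**
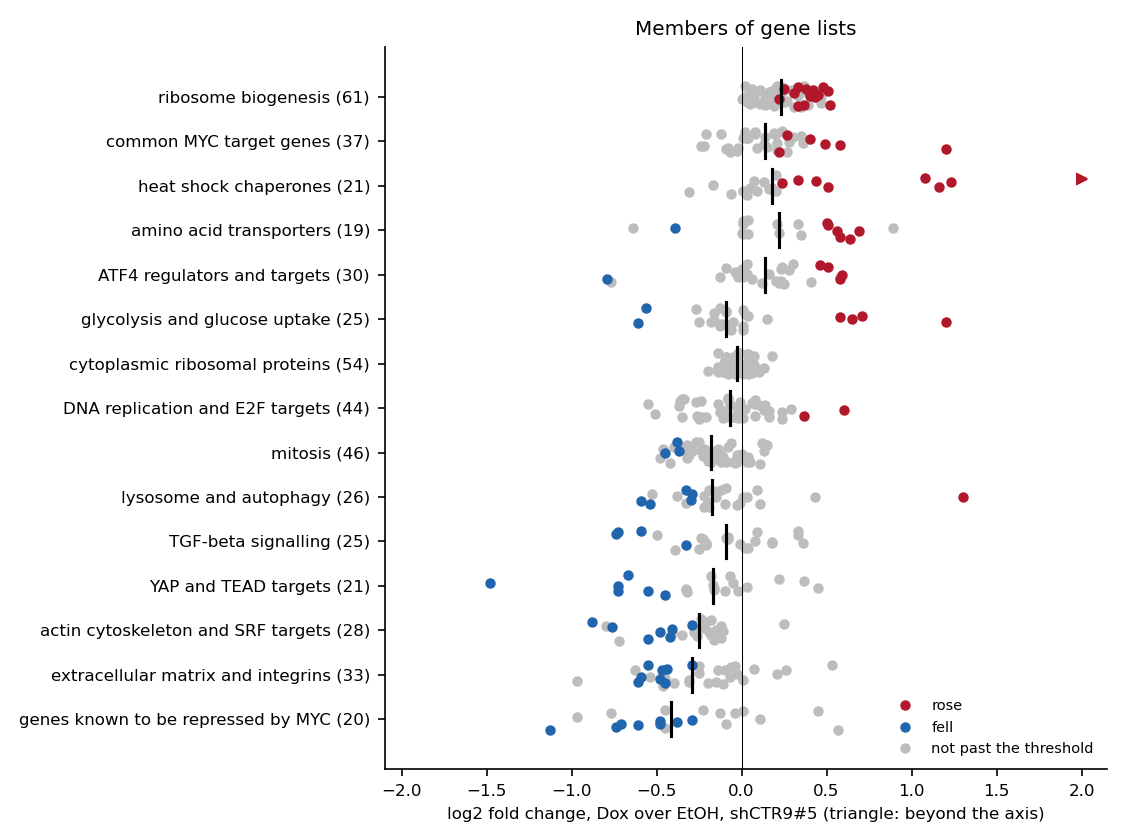
Log2 fold change of Dox over EtOH with shCTR9#5 for each tested member of 15 gene lists, with the number of members in brackets, the median as a black line and members that rose or fell in colour. The ribosome biogenesis list lies at or above 0 throughout, with a median of 0.23, the cytoplasmic ribosomal proteins lie around 0, and the lists of actin, matrix and MYC-repressed genes lie mostly below 0, with medians of -0.25, -0.29 and -0.41. HSPA6 (4.43) lies beyond the axis.

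Cell cycle genes that changed included cyclin D2 and the inhibitor p27, while 2 replication genes and 3 mitosis genes passed the test. CCND2, the gene of cyclin D2, had 285, 298, 324 and 315 CPM in Dox libraries, against 171, 162, 176 and 162 CPM in EtOH libraries. It rose by 0.86 ± 0.08 (adjusted p = 5.46e-11). CDKN1B, which encodes the cyclin-dependent kinase inhibitor p27, had 41.8, 45.7, 29 and 32.4 CPM in Dox libraries, against 48.4, 75.1, 63.4 and 60 CPM in EtOH libraries. The groups came close but did not overlap, and the change was -0.71 ± 0.14 (adjusted p = 0.000681). Of 21 G1 cyclins, kinases and inhibitors tested, 3 rose and 2 fell, and 1 rose without Dox replicate 1, Dox replicate 4 or EtOH replicate 2. Of 44 genes of DNA replication, 2 rose and none fell (median -0.07), beside 3.85% and 3.0% of all genes. GINS3, a part of the replicative helicase, had 80.4 to 102 CPM in Dox libraries and 54.2 to 65.2 CPM in EtOH libraries and rose by 0.60 ± 0.12 (adjusted p = 0.000866). Of 46 mitosis genes, none rose and 3 fell (median -0.18), among them TOP2A, the mitotic topoisomerase, with a change of -0.37 ± 0.08 (adjusted p = 0.00131), and the cytokinesis factor ECT2, with -0.38 ± 0.09 (adjusted p = 0.00439). The number of mitosis genes that fell was 7 with only the groups compared or without the 3 libraries of other groups in which short transcripts were read more often, 14 with only the groups compared and a replicate block, and 0 and 1 within letter A (replicates 1 and 2) and letter B (replicates 3 and 4) of the deposited names. Of 13 genes of the BCL2 family 1 rose and 1 fell (median -0.08). BCL2L1, which encodes the survival protein BCL-XL, had 167, 189, 210 and 188 CPM in Dox libraries, against 305, 270, 320 and 284 CPM in EtOH libraries, a change of -0.65 ± 0.09 (adjusted p = 1.01e-06). BCL2L11, which encodes the death-promoting protein BIM, had 109 to 147 CPM in Dox libraries and 79.1 to 95 CPM in EtOH libraries and rose by 0.49 ± 0.12 (adjusted p = 0.00656), a call lost without Dox replicate 2. The series title names repair of DNA double-strand breaks. Of 40 genes of that pathway 1 rose and none fell (median -0.05), beside 3.85% and 3.0% of all genes. That gene was RNF168, a ubiquitin ligase at breaks, which rose by 0.40 ± 0.10 (adjusted p = 0.00779) and missed the threshold without EtOH replicate 2.

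Immediate early genes were split. EGR1, a zinc finger factor induced by growth signals, had 67.3, 70.4, 99.4 and 65.7 CPM in Dox libraries, against 14.0, 19.2, 18.4 and 27.8 CPM in EtOH libraries, and rose by 1.91 ± 0.20 (adjusted p = 1.23e-09). ARC, best known from neurons, had 461, 552, 518 and 570 CPM in Dox libraries, against 200, 205, 232 and 216 CPM in EtOH libraries, and rose by 1.30 ± 0.10 (adjusted p = 1.5e-14). FOS, a subunit of AP-1, had 66.4, 66.6, 64.8 and 66.5 CPM in Dox libraries, against 28.1, 39.8, 28.6 and 33.0 CPM in EtOH libraries, and rose by 1.02 ± 0.17 (adjusted p = 2.2e-05). These 3 genes separated the treatments completely. KLF6, a zinc finger factor, fell by 0.72 on the log2 scale, and CYR61, a secreted matricellular factor, by 0.45. Altogether 3 of 21 members rose and 3 fell. Of 13 genes of MAP kinase feedback 1 rose and 1 fell. These were the phosphatase genes DUSP2 and DUSP10, with changes of 0.71 ± 0.15 (adjusted p = 0.00104) and -1.01 ± 0.17 (adjusted p = 4.79e-05).

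Where genes of adhesion, matrix and the actin cytoskeleton on the lists changed, they fell, and none of these lists had a member that rose. MMP13 is not on the matrix list. CAV1, which encodes the coat protein of caveolae, had 63.2, 62.9, 68.1 and 62.5 CPM in Dox libraries, against 133, 136, 148 and 143 CPM in EtOH libraries. It fell by 1.13 on the log2 scale (standard error 0.10, adjusted p = 3.58e-11), with all Dox libraries below all EtOH libraries. TGFBI, a matrix protein induced by TGF-beta, had 233, 189, 181 and 154 CPM in Dox libraries, against 350, 306, 308 and 302 CPM in EtOH libraries, a change of -0.74 ± 0.11 (adjusted p = 2.11e-06). Both belong to a list of 20 tested genes known to be repressed by MYC, of which 8 fell and none rose (median -0.41). That count was 5 to 7 with a replicate number or a single library left out. Of 33 genes of matrix and integrins, 8 fell (median -0.29). SPARC, a collagen-binding matrix protein, changed by -0.48 ± 0.09 (adjusted p = 0.000107). TIMP2, an inhibitor of matrix proteases, changed by -0.59 ± 0.12 (adjusted p = 0.00056), and the integrin gene ITGA3 by -0.55 ± 0.12 (adjusted p = 0.00124). The count for matrix and integrins was 5 without any of Dox replicates 2, 3 and 4 and EtOH replicate 2. Of 28 genes of the actin cytoskeleton and its regulator SRF, 7 fell (median -0.25), and 4 to 7 with a replicate number or a single library left out. TPM1, a tropomyosin, had 39.4, 49.4, 32.4 and 46.2 CPM in Dox libraries, against 85.1, 97.3, 75.6 and 53 CPM in EtOH libraries, a change of -0.88 ± 0.15 (adjusted p = 6.18e-05).

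Targets of YAP and TEAD, the factors that read cell stretch and density, included 6 of 21 that fell (median -0.17), beside 3.0% of all genes. With a replicate number or a single library left out, 3 to 5 fell. AXL, a receptor tyrosine kinase, had 113, 124, 111 and 112 CPM in Dox libraries, against 181, 193, 168 and 189 CPM in EtOH libraries. It fell by 0.67 on the log2 scale (standard error 0.08, adjusted p = 1.19e-07). F3, the gene of tissue factor, which starts blood clotting, had 12.3, 8.98, 7.82 and 13.0 CPM in Dox libraries, against 34.3, 30.6, 27.6 and 26.1 CPM in EtOH libraries, a change of -1.48 ± 0.25 (adjusted p = 4.48e-05). Neither gene overlapped between treatments. Of 25 genes of TGF-beta signalling 4 fell (median -0.09), and 2 fell without replicate 1 of the EtOH libraries. Among the 4 was the ligand gene TGFB2, with 23.8 to 42.7 CPM in Dox libraries and 50.1 to 65.6 CPM in EtOH libraries. Of 26 genes of lysosome and autophagy 5 fell and 1 rose (median -0.17). The gene that rose was TFEB, by 1.30 (adjusted p = 0.0479 in edgeR). CTSB, a lysosomal protease, had 331, 318, 354 and 354 CPM in Dox libraries, against 472, 496, 520 and 486 CPM in EtOH libraries, a change of -0.54 ± 0.07 (adjusted p = 7.02e-07). Only 1 gene of that list fell without Dox replicate 3 or without EtOH replicate 3, and 2 fell without EtOH replicate 1. FTH1, the heavy chain of the iron store ferritin, had 210 to 235 CPM in Dox libraries and 305 to 326 CPM in EtOH libraries and fell by 0.51 on the log2 scale (standard error 0.09, adjusted p = 9e-05).

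Apart from MYC itself, some genes that act on it or with it passed the test, beside 3.85% of all genes that rose and 3.0% that fell. Of 12 tested members of the MYC, MAX, MXD and MLX network, the other that rose was MYCL, a paralog of MYC. It had 24.6, 15.7, 25.7 and 29.2 CPM in Dox libraries, against 8.59, 3.06, 8.18 and 9.56 CPM in EtOH libraries, and rose by 1.69 ± 0.30 (adjusted p = 7.76e-05) with no overlap. Among 21 regulators of MYC turnover, 2 rose and 1 fell. USP36, a nucleolar deubiquitinase that stabilises MYC, rose by 0.39 ± 0.08 (adjusted p = 0.00134). FBXO32 had the larger rise, 0.55, a call lost in 16 of 24 alternative fits. The gene that fell was PJA2, a ubiquitin ligase, with a change of -0.60 ± 0.14 (adjusted p = 0.00349). Of 41 elongation factors and subunits of Integrator, 2 rose and none fell (median 0.06), a share near the 3.85% of all genes that rose. HEXIM1, the inhibitor of the elongation kinase P-TEFb, had 221, 208, 214 and 197 CPM in Dox libraries, against 173, 168, 156 and 152 CPM in EtOH libraries. It rose by 0.37 ± 0.09 (adjusted p = 0.00523). DOT1L, the H3K79 methyltransferase, rose by 0.49 ± 0.13 (adjusted p = 0.0139) and missed the threshold without Dox replicate 2 or 4 or EtOH replicate 4.

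Genes best known from the cleavage-stage embryo, many of them targets of the factor DUX4, rose with Dox, and most of them were nearly silent without it. This list was drawn up with these data already seen, so its counts are not independent evidence. Of its 40 names 39 matched a gene and 17 passed the filter on low counts. A gene of this kind could pass only through the group where it is high, so the share that rose is not read further. Of the 17, 15 rose and none fell. DUX4 itself had 0 reads in the shCTR9#5 libraries of either treatment. Most of these genes have near-identical copies, and how reads were split among copies is not known.

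TRIM43, a ubiquitin ligase gene, had 34.5, 40.4, 25.7 and 40.6 CPM in Dox libraries, against 5.46, 6.13, 3.07 and 1.74 CPM in EtOH libraries. It rose by 3.05 ± 0.29 (adjusted p = 5.46e-11). TRIM48 had 18.0, 21.7, 21.2 and 17.0 CPM in Dox libraries, against 3.90, 2.30, 0.0 and 1.74 CPM in EtOH libraries, a rise of 3.14 ± 0.39 (adjusted p = 6.29e-08). SLC34A2, a phosphate carrier, had 13.1, 12.7, 12.3 and 11.4 CPM in Dox libraries, against 1.56, 2.30, 1.02 and 0.869 CPM in EtOH libraries, a rise of 2.98 ± 0.46 (adjusted p = 1.09e-05). None of the 3 overlapped between treatments. MBD3L2 had 47 reads in Dox libraries and 2 in EtOH libraries, a ratio of 23.7 (exact interval 6.20 to 201). CCNA1, the gene of the germline cyclin A1, had 39 reads in Dox libraries and 2 in EtOH libraries, a ratio of 19.6 (exact interval 5.08 to 168). PRAMEF2 rose by 2.84 ± 0.52, TRIM43B by 2.81 ± 0.32 and TRIM49 by 2.76 ± 0.39, and the copies TRIM49D1 and TRIM49D2, which are not in the list, rose by 3.34 ± 0.47 and 2.79 ± 0.54. Of the members below the filter, TPRX1 had 22 reads in Dox libraries and 0 in EtOH libraries. The exact interval of its ratio began at 5.52. LEUTX had 10 and 0 reads, with an exact interval that began at 2.26. PRAMEF1 had 40 reads in Dox libraries and 2 in EtOH libraries, a ratio of 20.1 (exact interval 5.22 to 172), and ZSCAN4, a marker of the embryo at genome activation, had 21 and 8 reads, a ratio of 2.64 (exact interval 1.12 to 6.90). DUX4, MBD3L1, KHDC1L and RFPL1 had no reads in either treatment.

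The 39 genes together had 581 to 750 CPM in Dox libraries with shCTR9#5, against 340 to 411 CPM in EtOH libraries. With shCTR9#3 they had 599 to 649 CPM in Dox and 408 to 478 CPM in EtOH. With shNTC they had 187 to 225 CPM in Dox and 176 to 234 CPM in EtOH, and the treatments overlapped. The sums are carried largely by H3F3C, with a mean of 225 CPM in Dox and 214 CPM in EtOH with shCTR9#5, and RFPL4A and ZNF280A, which had 54.6 and 49.3 CPM on average in EtOH as well. TRIM43 with shCTR9#3 had 28.5, 41.6, 27.6 and 30.5 CPM in Dox libraries, against 0.926, 6.67, 4.09 and 4.42 CPM in EtOH libraries, and with shNTC it had 1.57 to 3.59 CPM in Dox and 1.53 to 3.29 CPM in EtOH. The difference of the response between shCTR9#5 and shNTC passed the test for TRIM48 only, and for TRIM43 it was 2.77 ± 0.68 (adjusted p = 0.0812).

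**Figure D4:**
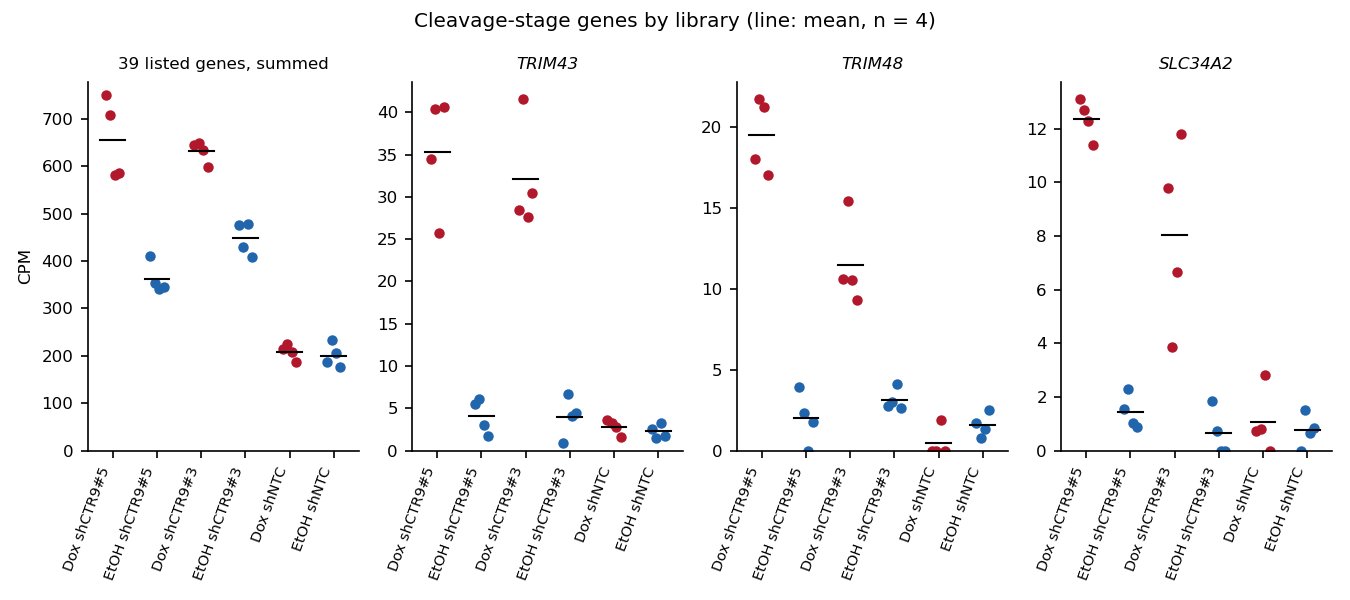
Summed level of the 39 listed cleavage-stage genes, and levels of TRIM43, TRIM48 and SLC34A2, in CPM for each of the 4 libraries of 6 groups, with the mean as a line. With either CTR9 hairpin the Dox libraries lie above the EtOH libraries in all 4 panels, whereas with shNTC they overlap, TRIM43 standing at 1.57 to 3.59 CPM in Dox and 1.53 to 3.29 CPM in EtOH.

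The response with hairpin 5 was next set beside that with hairpin 3, the other hairpin against CTR9. The 2 comparisons share no libraries. EtOH shCTR9#3 replicate 1 is among the 3 libraries of the series in which short transcripts were read more often, and it was kept. With shCTR9#3, Dox changed 1186 genes (9.44%), of which 636 rose (5.06%) and 550 fell (4.38%). Of the 482 genes other than MYC that rose with shCTR9#5, 474 changed in the same direction with shCTR9#3 (98.3%) and 334 rose there too, which is 69.3% of the genes that rose with shCTR9#5 and 52.6% of the 635 that rose with shCTR9#3. Of the 377 that fell with shCTR9#5, 206 fell with shCTR9#3, which is 54.6% of these and 37.5% of the 550. None was called in opposite directions. Across 12556 genes other than MYC the changes with shCTR9#5 and shCTR9#3 had a Pearson r of 0.65 and a Spearman rho of 0.55, given as a description since genes are not independent replicates. MYC rose by 4.09 with both hairpins. HSPA6 rose by 4.43 ± 0.21 with shCTR9#5 and 4.75 ± 0.21 with shCTR9#3, a difference of -0.33 ± 0.41. HK2 rose by 1.20 and 1.37, EGR1 by 1.91 and 1.88, and CAV1 changed by -1.13 and -0.97.

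No gene's response differed between hairpins 5 and 3 at an adjusted p below 0.05 in edgeR (0 of 12557, 0.0%), and 413 had an unadjusted p below 0.05. DESeq2 also called 0, with 275 at an unadjusted p below 0.05. Without the 3 libraries in which short transcripts were read more often, edgeR also called 0. The median standard error of such a difference was 0.27, and simulated differences of 1.5-fold, 2-fold and 4-fold were recovered for 13.4%, 47.8% and 84.8% of genes, so differences below 2-fold would mostly have been missed at this depth.

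Against the control hairpin, the response with shCTR9#5 took in fewer genes. With shNTC Dox changed 2187 genes (17.4%), of which 1066 rose (8.49%) and 1121 fell (8.93%). Of the 482 genes that rose with shCTR9#5, 303 rose with shNTC (62.9%), and these were 28.5% of the 1065 that rose with shNTC. Of the 377 that fell, 250 fell with shNTC (66.3%), which were 22.3% of the 1121. Genes that rose with shNTC had a median change of 0.31 with shCTR9#5 and 0.57 with shNTC, where they were chosen, and genes that fell had -0.34 and -0.64. A median is drawn away from 0 in the comparison in which the genes were chosen. In the other direction, genes that rose with shCTR9#5 had a median of 0.65 there and 0.58 with shNTC. Genes called with shCTR9#3, chosen in neither, had medians of 0.49 with shCTR9#5 and 0.50 with shNTC for the 635 that rose, and -0.38 and -0.43 for the 550 that fell. They were chosen with a hairpin against CTR9 as well, so the choice is not neutral between shCTR9#5 and shNTC. Genes that respond only with shNTC are left out of it.

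Of 39 lists, leaving out that of the cleavage stage, 32 held fewer called genes with shCTR9#5 than with shNTC, 6 as many and 1 more. Over all genes 6.85% were called with shCTR9#5 and 17.4% with shNTC, so most lists would hold fewer from the totals alone. Some lists share members. Among the lists with as many, those of PAF1 and SKI subunits, cytoplasmic ribosomal proteins and the CCT chaperonin had 0 called with either. Of 46 mitosis genes 3 fell with shCTR9#5 (median -0.18) and 29 with shNTC (median -0.41). Of 33 matrix and integrin genes 8 fell with shCTR9#5 (median -0.29) and 17 with shNTC (median -0.60). Among ribosome biogenesis genes 15 of 61 rose with shCTR9#5 (median 0.23) and 34 with shNTC (median 0.37). The list with more was that of heat shock chaperones, of which 8 of 21 rose with shCTR9#5 (median 0.18) and 5 with shNTC (median 0.13). With a replicate number or a single library left out, 3 to 7 of them rose with shCTR9#5. Of 21 YAP and TEAD targets 6 fell with either hairpin, at medians of -0.17 with shCTR9#5 and -0.39 with shNTC. No difference of response among the members of these 5 lists passed the test. The median differences of shCTR9#5 minus shNTC were 0.22 for mitosis, 0.23 for matrix and integrins, -0.12 for ribosome biogenesis, 0.12 for heat shock chaperones and 0.18 for YAP and TEAD targets.

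Tested gene by gene, the response to Dox differed between shCTR9#5 and shNTC for 19 genes (0.151%), with the response higher with shCTR9#5 for 15 (0.119%) and lower for 4 (0.0319%). The count was 11 without EtOH shCTR9#5 replicate 4. MYC itself was among the 4. It had 8818 to 9647 CPM in Dox libraries with shCTR9#5 and 14360 to 15856 CPM in Dox libraries with shNTC. Its level in Dox was lower with shCTR9#5 by a log2 difference of -0.67 ± 0.07 (adjusted p = 3.91e-10), while in EtOH the difference was 0.11 ± 0.08 (adjusted p = 0.268). The response differed by -0.78 ± 0.11 (adjusted p = 1.91e-05). The share of this lower MYC level in the other differences between shCTR9#5 and shNTC was not tested.

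Of the other genes the largest difference was for TRIM48, 4.83 ± 1.02 (adjusted p = 0.0191), on 2 reads in Dox and 8 in EtOH with shNTC. VIPR2, with 8 reads in Dox and 14 in EtOH with shNTC, differed by 3.50 ± 0.76 (adjusted p = 0.0249), and missed the threshold without EtOH shCTR9#5 replicate 3 or 4. TAF11L12, a member of a family of near-identical copies, differed by 2.93 ± 0.60 (adjusted p = 0.0172). LINC00452 had 45.9, 81.6, 89.3 and 71.4 CPM in Dox libraries with shCTR9#5, against 48.4, 39.8, 40.9 and 24.3 CPM in EtOH libraries. With shNTC it had 29.5, 26.9, 17.7 and 22.0 CPM in Dox libraries, against 33.8, 47.5, 46.0 and 44.5 CPM in EtOH libraries. The change was 0.89 with shCTR9#5, with overlapping libraries, and -0.82 with shNTC, and the difference was 1.72 ± 0.28 (adjusted p = 0.000334). HEXIM1 rose by 0.37 with shCTR9#5 and changed by -0.27 ± 0.11 with shNTC (adjusted p = 0.0771), a difference of 0.64 ± 0.14 (adjusted p = 0.0249) that missed the threshold without Dox shCTR9#5 replicate 1 or 3 or EtOH shCTR9#5 replicate 3 or 4. Its level was higher with shCTR9#5 in both treatments, at 197 to 221 CPM in Dox and 152 to 173 CPM in EtOH, against 46.7 to 63.3 CPM in Dox and 62.9 to 75.6 CPM in EtOH with shNTC.

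Other differences came from genes that changed with shNTC and did not pass the test with shCTR9#5. SEMA3C, a secreted guidance factor, had 23.8, 23.2, 21.2 and 21.1 CPM in Dox libraries with shCTR9#5, against 22.6, 24.5, 19.4 and 17.4 CPM in EtOH libraries. With shNTC it had 7.91, 5.70, 11.2 and 5.51 CPM in Dox libraries, against 24.5, 19.1, 19.7 and 25.2 CPM in EtOH libraries. The difference was 1.63 ± 0.30 (adjusted p = 0.00394). ATF3, a stress-induced factor of the ATF family, had 147 to 170 CPM in Dox and 126 to 152 CPM in EtOH with shCTR9#5, against 75.5 to 98.5 CPM in Dox and 37.7 to 50.5 CPM in EtOH with shNTC. It rose by 0.98 with shNTC, and the difference of -0.78 ± 0.17 (adjusted p = 0.028) missed the threshold without any of Dox shCTR9#5 replicates 1, 3 and 4 and EtOH shCTR9#5 replicates 2, 3 and 4. ATP6V1C1, a subunit of the lysosomal proton pump, rose by 0.50 with shNTC and changed by -0.10 ± 0.09 with shCTR9#5. Its difference was -0.60 ± 0.12 (adjusted p = 0.0184) and missed the threshold without EtOH shCTR9#5 replicate 2. ASF1B, a histone chaperone, fell by 1.10 on the log2 scale with shNTC and changed by -0.05 ± 0.16 with shCTR9#5. Its difference was 1.04 ± 0.23 (adjusted p = 0.0249) and missed the threshold without Dox shCTR9#5 replicate 2 or 4 or EtOH shCTR9#5 replicate 3 or 4.

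**Figure D5:**
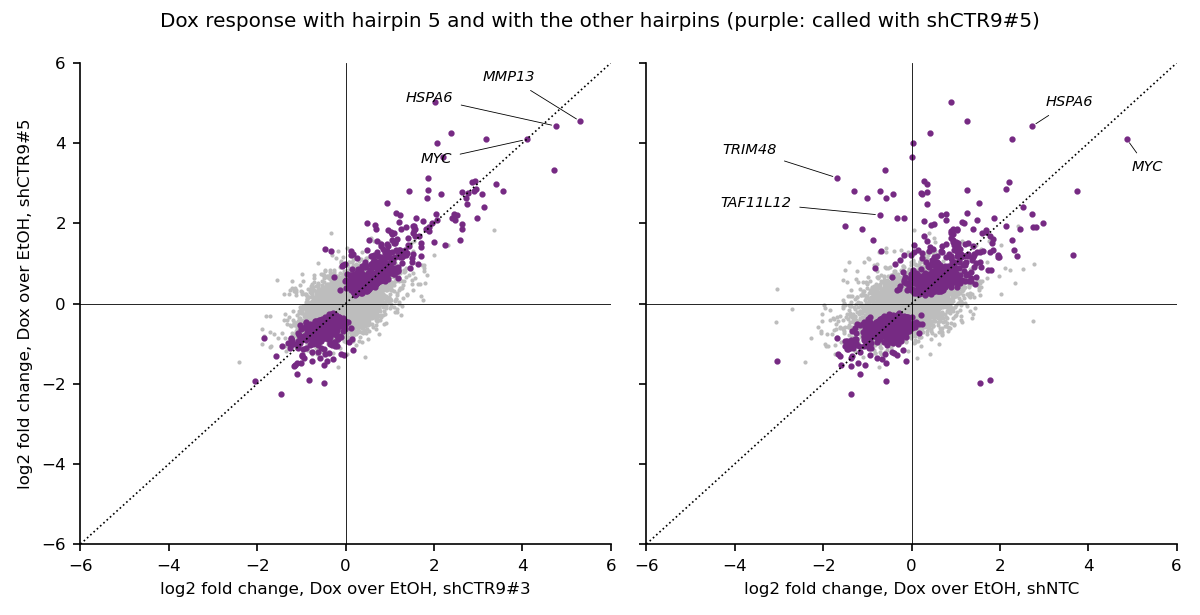
Log2 fold change of Dox over EtOH with shCTR9#5 (vertical) against that with shCTR9#3 (left) and with shNTC (right) for 12557 genes, with genes called with shCTR9#5 in purple and equal change as a dotted line. MYC lies on the line with shCTR9#3 (4.09 in both) and to the right of it with shNTC (4.88), and TRIM48 and TAF11L12 lie above 2 with shCTR9#5 and below 0 with shNTC.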

How the data were processed

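RNA was sequenced from 40 U2OS libraries, 10 groups of 4. The deposited values are read counts per gene, with no scaling visible in them. The authors used Bowtie, HISAT2 and edgeR with hg19, per the submitters' processing notes. Neither versions nor the strand setting, counter and gene models are stated there, so overlapping and antisense genes cannot be told apart, and symbols were taken from a later annotation (51989 of 63152 Ensembl genes, 98.74% of reads).

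The test was edgeR 4.0.16 (quasi-likelihood, robust) in R 4.3.3, with 10 group means fitted to all 40 libraries. The edgeR filter by group (minimum count 10, total 15) left 12557 genes with 98.65% of reads. TMM factors ran from 0.9226 to 1.029 and the biological coefficient of variation was 11.36%. Contrasts were Dox against EtOH for shCTR9#5, shCTR9#3 and shNTC, and the differences of response. P-values are two-sided. The standard error is the log2 fold change over the square root of F.

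In simulated counts for Dox with shCTR9#5, the test found 34.3% of 1.5-fold, 64.2% of 2-fold and 93.9% of 4-fold changes and called 7 of 12357 unchanged genes. Replicates of a group differed by more than counting noise, with chi-square per degree of freedom from 1.06 to 1.97. The lowest values belong to replicates 3 and 4 of Dox (1.06) and of EtOH (1.08), still beyond counting noise, which were kept apart and summed in an alternative chosen after seeing the data.

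Members, the 40 gene lists and the naming rule were chosen with earlier results of these data known. The rule names MYC and the PAF1 and SKI subunits, the 15 largest changes each way among called genes averaging at least 5 CPM with no overlap of libraries, the 4 smallest p-values of each list, and the 8 largest differences of response each way. Alternatives tried were RLE scaling, other filters, DESeq2 1.42.0, fewer groups in the fit, terms for replicate number and for the letter (A or B) in the deposited names, and left-out libraries.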

Additional observations from a re-analysis of the deposited data

Results flagged for a closer look

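In 238 groups of 4 libraries of named genes, the highest or lowest library stood apart by Dixon's criterion in 15, and about 1 in 20 groups would do so by chance. In Dox libraries with shCTR9#5 the highest library stood apart for LINC01060 (136 CPM, the others 96.5 to 102), APOL6 (5.68 CPM, the others 0.0 to 0.82), SLC38A2 (484 CPM, the others 436 to 444), EGR1 (99.4 CPM, the others 65.7 to 70.4) and CAV1 (68.1 CPM, the others 62.5 to 63.2). The lowest Dox library stood apart for NPC2 (29 CPM, the others 32 to 32.4), LAMP2 (170 CPM, the others 195 to 200), SQSTM1 (255 CPM, the others 293 to 298) and FOS (64.8 CPM, the others 66.4 to 66.6). Of these 9, 6 were replicate 3. In EtOH libraries the highest library stood apart for MBD3L2 (1.56 CPM, the others at 0.0) and TGFBI (350 CPM, the others 302 to 308). The lowest stood apart for BAG3 (149 CPM, the others 156 to 158), GDF15 (35.1 CPM, the others 37.4 to 37.8), SLC2A3 (92.7 CPM, the others 96.5 to 97.1) and TRIM49 (0.869 CPM, the others 3.06 to 3.12).

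The response to Dox differed between shCTR9#5 and shNTC by edgeR's test of the difference itself for 13 named genes. The log2 difference of shCTR9#5 minus shNTC was 4.83 for TRIM48, 3.5 for VIPR2, 2.99 for MYO7A, 2.93 for TAF11L12, 1.72 for LINC00452, 1.63 for SEMA3C, 1.18 for DPYSL2, 1.04 for ASF1B and 0.64 for HEXIM1. It was -0.95 for ENSG00000204771, -0.78 for MYC, -0.78 for ATF3 and -0.60 for ATP6V1C1. The value for MYO7A missed the threshold without any of Dox shCTR9#5 replicates 3 and 4 and EtOH shCTR9#5 replicates 1, 2 and 4, and that for DPYSL2 without any of Dox shCTR9#5 replicates 1, 3 and 4 and EtOH shCTR9#5 replicates 2 and 4.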

How the results depend on the processing

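The 860 genes called for Dox with shCTR9#5 numbered 745 to 917 with RLE scaling, other filters, DESeq2 or a term for the letter in the deposited names, 1137 with only the groups compared, 1378 without the 3 libraries of other groups in which short transcripts were read more often, and 680 with replicates 3 and 4 summed. The 3 libraries are EtOH shCDC73#4 replicates 1 and 3 and EtOH shCTR9#3 replicate 1. Leaving out a replicate number in all groups or a single library gave 405 to 749. Within letter A alone (2 libraries against 2) 112 were called and within letter B alone 164. The difference of response between shCTR9#5 and shNTC (19 genes) gave 44 with only the groups compared, 59 without the 3 libraries, 8 with replicates 3 and 4 summed and 3 to 21 with a replicate left out. The difference between shCTR9#5 and shCTR9#3 gave 0 in every alternative run. Same-numbered Dox and EtOH libraries deviated together with correlations of 0.224, 0.087, 0.035 and 0.047. Dox 1, 2 and 4 each correlated best with the EtOH library of the same number, and Dox 3 with EtOH 4 (0.061). The labels do not say whether the numbers pair the libraries, and the main fit has no term for them. If they do, that fit leaves a pairing out. With a replicate block 1066 genes were called, 860 of them the same, and 28 for the difference from shNTC. With a replicate block and only the groups compared the counts were 1947 and 163. Beyond the fewer or more libraries each setting leaves, the cause of these shifts was not tested. Of 114 named genes that were called, none reversed in any alternative and 31 stayed called in all of them. Depth limits genes of a few CPM.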

Other observations

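Lists not described above held few genes that passed the test, read against 3.85% of all genes that rose and 3.0% that fell. Of 27 genes of cholesterol and fatty acid synthesis 2 fell (median -0.01). STARD4, a cholesterol carrier, had 27.1, 35.2, 33.5 and 22.7 CPM in Dox libraries, against 64.0, 57.5, 48.0 and 46.9 CPM in EtOH libraries, a change of -0.88 ± 0.17 (adjusted p = 0.000254 in edgeR). Of 28 p53 targets 2 rose and none fell (median -0.09). Of 13 NF-kB and inflammatory genes 1 fell, TNFAIP2, with 42.7 to 58.4 CPM in Dox libraries and 70.2 to 91.0 CPM in EtOH libraries. Of 14 interferon-stimulated genes 1 fell (median 0.04), of 13 replication-dependent histones 1 rose (median 0.09), and of 20 genes of NRF2 and glutathione 1 fell, FTH1. Of 33 translation initiation factors 2 rose (median 0.07), among them EIF3J, a loosely bound subunit of eIF3, with 211 to 252 CPM in Dox libraries and 163 to 179 CPM in EtOH libraries. Of 19 genes of RNA polymerase III and its factors 1 rose (median 0.17).

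With protein-coding genes in 5 bins of 2121 or 2122 by genomic length, the shortest bin (up to 12.4 kb) had 115 that rose and 80 that fell, against 70 and 50 in the longest (above 110 kb). The median change was -0.01 in the shortest bin.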
